A study of Mus musculus with 24 samples.

Results

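Het and WT cultures of primary osteoblasts (OBs) were compared at day 14 after seeding, across all genes and without the libraries of other days. The members were the 8 libraries that the labels place at day 14, 4 of Het G610C and 4 of WT, out of 24 in the series. All 8 cultures held OBs from mouse parietal bones under osteogenic differentiation, taken from pups of 4 to 5 days on the C57BL/6J background. Het pups (strain B6.129(FVB)-Col1a2tm1Mcbr/J) carry 1 *Col1a2* allele with the G610C substitution, so that glycine is replaced by cysteine in the triple helix of the procollagen α2(I) chain. WT pups were C57BL/6J without that allele, and no agent was given to either genotype beyond the differentiation medium with ascorbic acid 2-phosphate. Before plating, the cells of multiple pups with like genotype were pooled, so wells share a pool. The study describes a pair of experiments on different litters, which differed in plating density and oxygen, and the labels do not say which replicate came from which. It describes fewer wells per genotype at day 14 than the 4 libraries labelled here, and the sources used do not explain the difference. Replicates 2 to 4 may be wells of 1 pool per genotype. Results without replicate 1 may then compare 1 pool with 1 pool. The p-values below therefore measure the spread between wells, part of which may be technical, and not the spread between animals.

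OBs secrete large amounts of type I procollagen, a heterotrimer that has to fold in the endoplasmic reticulum (ER) before export. Misfolded ER proteins are classically sensed by the ER unfolded protein response (ER-UPR), which induces BIP and other ER chaperones, and the integrated stress response (ISR) acts through phosphorylated eIF2α and the transcription factor ATF4 on genes of amino acid supply, tRNA charging and stress signalling. ATF4 and its partners bind a C/EBP-ATF response element in the promoters of many of these genes, and ATF5 and mt-HSP70, encoded by *Hspa9*, belong to the response to misfolding in mitochondria (mt-UPR).

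Promoters are shown first because several genes that were higher in Het share such an element. In the RefSeq promoters (GRCm38.p6, 250 bases before to 50 after the start), the letters TGATGNAA, the core of the C/EBP-ATF element with N for any base, were searched on both strands, so that a match on the other strand is printed as its reverse complement. They were present for 9 of 27 genes of the ISR list that had a promoter (33.3%), against 4.51% of 27025 genes with a promoter and 2.84% of 12063 tested ones. The list names known regulators and targets of the ISR, many of which are bound at this element. Its share therefore follows in part from the choice of the list and is not a result of these cultures. Of the genes called higher in Het below, 2 of 13 had a match, *Trib3* and *Avil*, and of those called lower 0 of 11. Of the genes called without replicate 1, 81 of 1320 higher ones had a match (6.14%) and 29 of 1217 lower ones (2.38%). In the following windows the match is in capitals. *Trib3* and *Avil* are the pair of called genes. The others are ISR list genes that rose without replicate 1, but they were not picked by the size of the increase. Of the ISR list genes with a match, *Fgf21* and *Herpud1* are not printed, and their values follow. *Fgf21* rose more than *Chac1* and *Nupr1* without replicate 1 but was lower in Het within it. *Jdp2* and *Vldlr* are not printed either. They were not called with all libraries (log2 fold changes 0.13 and −0.16) or without replicate 1 (0.12 and −0.17).
Trib3 (chr2:152344031-152344054, minus strand, first base of the match at 15 after the start): gctcaggtTTACATCAgccgggcg
Avil (chr10:127000672-127000708, plus strand, -17): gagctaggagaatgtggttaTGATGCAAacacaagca
Atf3 (chr1:191183416-191183463, minus strand, -110): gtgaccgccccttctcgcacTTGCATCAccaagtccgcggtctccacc
Chac1 (chr2:119351029-119351076, plus strand, -193): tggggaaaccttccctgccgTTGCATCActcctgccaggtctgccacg
Nupr1 (chr7:126625553-126625600, minus strand, -110): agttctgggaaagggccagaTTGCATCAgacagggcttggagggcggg
Slc7a11 (chr3:50443633-50443680, minus strand, -47): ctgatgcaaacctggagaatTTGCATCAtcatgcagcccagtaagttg
The window of *Slc7a11*, which encodes the cystine transporter xCT, holds another match in lower case to the left. The letters TGACGTGG, a site of ATF6 and the CREB3 family, were found for 0 of 27 ISR list genes and 0 of 23 genes of the ER-UPR list, against 0.714% of all genes with a promoter. A match is a description of the letters, not evidence of binding.

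Totals were 24549897 to 59734231 counts in WT and 17140202 to 56219341 in Het, with the lowest total of each genotype in replicate 1. Replicate 1 also stood apart in profile. For genes averaging 50 counts or more, the root mean square difference on the log2 scale between replicate 1 and the others was 0.438 to 0.55 in WT, against 0.631 to 0.687 in Het. Among replicates 2 to 4 it was 0.15 to 0.225 in WT, against 0.202 to 0.428 in Het. Values without replicate 1 are therefore set beside those of all 8 libraries for the lists and for many genes. Of the OB markers, *Col1a1*, *Runx2*, *Sp7* and *Ibsp* were detected in every library, with 88994 to 315225 counts of *Ibsp*. *Myog* and *Ckm* of skeletal muscle had 0 to 2 counts per library, *Adipoq* of adipocytes 0 to 8, *Clec3b* of fibroblasts 1 to 18 and *Pecam1* of endothelium 8 to 21. Other markers of such cells were abundant, with 33697 to 79504 counts of *Acta2* of smooth muscle and 5324 to 23946 of *Ctsk* of osteoclasts. The 15 fibroblast genes, among them *Fn1*, *Postn* and *Lum*, which OBs express too, had the highest summed RQ of the lists of other cell types, at 32.5 to 47.7 (RQ is explained below), and the 14 smooth muscle genes had 9.06 to 11.1. Markers of macrophages and chondrocytes are described below.

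With all 8 libraries, edgeR's quasi-likelihood test at an adjusted p of 0.05 called 34 of 18368 genes at day 14, of which 16 were higher in Het (0.0871% of the genes tested) and 18 lower (0.098%). Levels are given as RQ, for which each count was divided by a housekeeping value of its library, the geometric mean over *Sdha*, *Mrfap1*, *Actb* and *Actg1*. The housekeeping genes themselves had log2 fold changes of −0.05 to 0.07. Without replicate 1 the same test called 1816 of 18490 genes higher (9.82%) and 1773 lower (9.59%), all 34 genes among them. With replicate 2, 3 or 4 left out in place of replicate 1, *Gal* alone was called. Leaving out single libraries gave 1 to 2190 calls, with the lowest count without WT replicate 2 or WT replicate 4 and the highest without Het replicate 1.

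The stress gene with the smallest p was *Trib3*, a pseudokinase that is induced by ATF4 and CHOP. Its RQ was 0.0237, 0.0269, 0.0242 and 0.0234 in WT replicates 1 to 4 and 0.0976, 0.251, 0.191 and 0.179 in the Het replicates. No Het library overlapped WT, and Het replicate 1 was the lowest of the Het libraries. The log2 fold change was 2.87 ± 0.25 (SE, n = 4 and 4, adjusted p = 0.0069 in edgeR), or 3.06 without replicate 1.

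*Ddit3*, which encodes the ISR transcription factor CHOP, had RQs of 0.0428, 0.0377, 0.0371 and 0.0361 in WT, against 0.0582, 0.109, 0.0924 and 0.0926 in Het. The genotypes did not overlap, and Het replicate 1 again lay nearest to WT (log2 fold change 1.2 ± 0.17, adjusted p = 0.046 in edgeR, 0.095 with the replicate number as a block). A shorter *Ddit3* entry of the annotation that shares 105 exonic bases with it was called as well (1.28 ± 0.19), and its call too was lost with the block (adjusted p = 0.0987 in edgeR). The stress cytokine *Gdf15* had RQs of 0.00482 to 0.00621 in WT, against 0.00907, 0.0181, 0.0157 and 0.0158 in Het replicates 1 to 4 (1.47 ± 0.21, adjusted p = 0.046 in edgeR, 0.0987 with the block).

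*Atf5*, a bZIP transcription factor of the ISR and the mt-UPR, had RQs of 0.248, 0.299, 0.288 and 0.271 in WT, against 0.397, 0.506, 0.444 and 0.426 in Het. Its increase was alike in replicate 1 (log2 ratio 0.68) and without it (0.68), in contrast to *Ddit3*, at 0.44 and 1.41; the difference between these genes was not tested. The 4 against 4 fit gave 0.68 ± 0.10 (adjusted p = 0.046 in edgeR). Its call was lost in edgeR with the TMM scale (adjusted p = 0.058) and with DESeq2 size factors (0.0545). *Il4i1*, an amino acid oxidase gene, was also called (0.73 ± 0.08). It shares 82 exonic bases with *Atf5* and 3423 with *Tbc1d17*, both on the other strand, and 97 with *Nup62* on its own. The strand setting of the counting is not given in the sources used here, so reads of the overlaps cannot be assigned to either gene. *Wars*, the cytosolic tryptophanyl-tRNA synthetase, had RQs of 0.0652 to 0.0799 in WT, against 0.107 to 0.137 in Het (0.70 ± 0.10, adjusted p = 0.048 in edgeR, 0.0919 with the block). *Cyb5r1*, a reductase of cytochrome b5, had 0.0702 to 0.0759 in WT, against 0.111, 0.235, 0.195 and 0.183 in Het replicates 1 to 4 (1.31 ± 0.19, adjusted p = 0.048 in edgeR, 0.0806 with the block).

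The largest increases were in genes that WT cultures barely expressed. *Car6*, a secreted carbonic anhydrase, had 2, 6, 6 and 7 counts in WT and 29, 300, 346 and 261 in Het, and a log2 fold change of 5.72 ± 0.59 (adjusted p = 0.013 in edgeR). The glycosyltransferase gene *B4galnt2* had 6 to 24 counts in WT and 56 to 297 in Het (3.96 ± 0.46), and *Soat2*, a sterol O-acyltransferase, had 12 to 36 and 59 to 298 (3.17 ± 0.29). The non-coding *1700127F24Rik* had 0 to 2 counts in WT and 7 to 35 in Het, too few for its fitted fold to be read as a size. In each of these genes every Het library lay above every WT library.

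*Avil*, the actin-binding protein advillin, had RQs of 0.00795, 0.0244, 0.0232 and 0.0178 in WT, against 0.0682, 0.282, 0.17 and 0.154 in Het. Replicate 1 was the lowest library of both genotypes, and the change was of like size within it (log2 ratio 3.10) and without it (3.21). Its adjusted p was 0.046 in edgeR, and 0.00107 with the replicate number as a block. With the TMM scale and with DESeq2 size factors it was 0.058 and 0.0545 in edgeR, outside the threshold. It shares 165 exonic bases with *Tsfm* on the other strand, whose own log2 fold change was 0.72 (adjusted p = 0.102 in edgeR). *Cdsn*, the adhesion protein corneodesmosin, had RQs of 0.0551 to 0.0879 in WT, against 0.272 to 0.474 in Het (2.22 ± 0.21, adjusted p = 0.0085 in edgeR, or 2.10 without replicate 1). *Cdh6*, a cadherin, and *Trim66* rose by 1.47 and 2.19 on the log2 scale, and the call of *Cdh6* was lost with the block (adjusted p = 0.0987 in edgeR).

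*Gal* (chromosome 19, 3409915 to 3414544, minus strand, GRCm38), which encodes the neuropeptide galanin, was the gene with the smallest p. Its RQ was 0.0247, 0.0278, 0.027 and 0.0278 in WT, against 0.00397, 0.00305, 0.00266 and 0.00301 in Het. WT and Het stood far apart in every replicate, replicate 1 included (log2 ratio −2.62), and the fitted log2 fold change was −3.10 ± 0.14 (adjusted p = 6.94e-05 in edgeR). *Car12*, a membrane carbonic anhydrase, had RQs of 0.0285 to 0.0387 in WT, against 0.00849 to 0.0166 in Het (−1.45 ± 0.22, adjusted p = 0.048 in edgeR, 0.0987 with the block, or −1.30 without replicate 1). *Galnt5*, which starts O-linked glycosylation, was nearly constant within each genotype, at 0.0689 to 0.0717 in WT, against 0.0355 to 0.0417 in Het (−0.83 ± 0.07, adjusted p = 0.0069 in edgeR, or −0.86 without replicate 1).

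**Figure D1:**
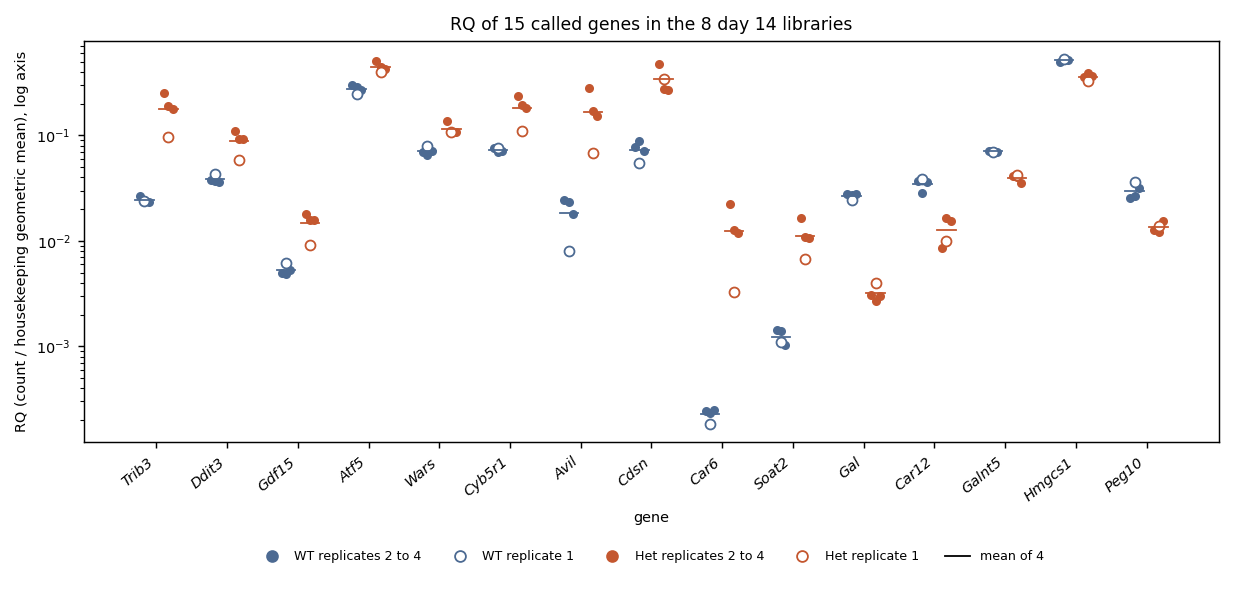
RQ of 15 called genes (x axis) on a logarithmic y axis, with WT in blue and Het in orange, replicate 1 as unfilled circles, replicates 2 to 4 as filled circles and the mean of 4 as a bar. In *Trib3*, *Ddit3*, *Gdf15* and *Cyb5r1* the unfilled Het circle lies between the WT libraries and the other Het libraries, while in *Atf5*, *Gal*, *Galnt5* and *Hmgcs1* replicate 1 sits close to the rest of its genotype.

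*Hmgcs1*, the enzyme that makes HMG-CoA for cholesterol synthesis, had RQs of 0.531, 0.4996, 0.527 and 0.521 in WT, against 0.327, 0.359, 0.3899 and 0.363 in Het (−0.53 ± 0.08, adjusted p = 0.046 in edgeR, 0.0987 with the block). Het lay below WT in all libraries. *Gm48342*, which lies within *Hmgcs1* on the other strand and shares 557 exonic bases with it, was called lower too (−0.50 ± 0.07, adjusted p = 0.0951 in edgeR with the block), and the pair cannot be told apart without the strand setting. *Mir5114* lies inside *Scd2*, a fatty acid desaturase gene, on the same strand (−0.47 ± 0.06, adjusted p = 0.0919 in edgeR with the block), so that its count may hold reads of *Scd2*, whose own log2 fold change was −0.38 (adjusted p = 0.115 in edgeR). Calls of modest size were further made for *Gramd2* (−0.71), the sialyltransferase *St3gal6* (−0.68), the guanine nucleotide exchange factor *Arhgef19* (−0.58), the Arf regulators *Asap2* (−0.54) and *Psd3* (−0.54), the clock gene *Per3* (−0.53) and *Ccdc68* (−0.73). With the block, the calls of these 7 genes were lost (adjusted p = 0.062 to 0.115 in edgeR). *St3gal6* shares 1603 exonic bases with *Dcbld2* on the other strand (log2 fold change −0.35), and *Asap2*, *Psd3*, *Ccdc68*, *Galnt5* and *B4galnt2* share 114 to 402 with genes there. *Gm13630* (−2.0) and *3830403N18Rik* (−1.19) complete the genes that were lower, *Gm13630* with 2 to 10 counts in Het and its call lost with the block (adjusted p = 0.0919 in edgeR).

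Genes linked to the sex and to the mutant locus were among those lower. The Y-linked *Uty*, a histone demethylase homologue, had RQs of 0.0308 to 0.0352 in WT, against 0.012 to 0.0189 in Het (−1.11 ± 0.14, adjusted p = 0.027 in edgeR, or −1.08 without replicate 1), and *Eif2s3y*, a translation factor gene, 0.0589 to 0.0793 and 0.0341 to 0.0444 (−0.79 ± 0.12, adjusted p = 0.048 in edgeR). *Ddx3y* and *Kdm5d*, looked at after these values were seen, had Het to WT ratios of mean RQ of 0.568 (without overlap, adjusted p = 0.0745 in edgeR, 0.0469 with the block) and 0.628 (with overlap), and the X-linked *Xist* one of 0.996. The share of male pups in each pool is not given, and the genotype cannot be told apart from it. *Peg10*, an imprinted gene 206 kb from *Col1a2* on chromosome 6 (4747306 to 4760517, plus strand, GRCm38), had RQs of 0.0253 to 0.0361 in WT, against 0.012 to 0.0153 in Het (−1.15 ± 0.14, adjusted p = 0.027 in edgeR, or −1.07 without replicate 1). Of 16 tested genes within 1 Mb of *Col1a2*, itself included, *Peg10* was the 1 called with all libraries. Without replicate 1, 6 were called, where 9.82% of all genes were called higher and 9.59% lower. These were *Peg10*, *Col1a2*, *Gm43921* inside it, *Asb4* (−1.80) and *Pdk4* (−0.665), all lower, and *Vps50*, higher (0.24). *Sgce* and *Casd1*, which lie between *Col1a2* and *Peg10*, had log2 fold changes of −0.19 and −0.29 with all libraries (adjusted p = 0.377 and 0.341 in edgeR).

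The genes whose genotypes do not overlap give a view that does not depend on the fit. Over all tested genes, Het lay above WT in every pairing of libraries for 2.25% and below it for 8.86%. These shares depended on the scale. They were 6.21% above and 4.65% below with TMM, 7.02% and 4.17% with DESeq2 size factors and 8.32% and 3.03% with the total count, so that the larger share changed sides. The median log2 fold change of all genes was −0.08 with the housekeeping scale, −0.02 with TMM and 0.03 with the total count. The counts without overlap below are on the housekeeping scale. Without replicate 1, 9.82% of all genes were called higher and 9.59% lower. In replicate 1 alone 25.2% of all genes were higher in Het, with a median log2 ratio of −0.21. The list counts and medians below stand beside these values.

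Among genes of the ISR the calls with all libraries were all upward. All 31 of its regulators and targets were tested, 4 were called higher with all libraries (*Trib3*, *Ddit3*, *Gdf15* and *Atf5*) and none lower, and 12 lay above WT without overlap (15 to 18 on the other scales), with 1 below. The median log2 fold change was 0.60, against −0.08 over all genes. It was 0.14 in replicate 1 and 0.67 without replicate 1, where 20 were called higher and 1 lower. The members were chosen with results of these cultures known, so their direction is not independent evidence.

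*Slc7a11*, the cystine transporter shown above, had RQs of 0.00502, 0.00407, 0.0049 and 0.00483 in WT, against 0.00578, 0.016, 0.0178 and 0.0152 in Het. Het replicate 1 was close to WT and the other 3 Het libraries were not (log2 ratio 0.20 in replicate 1, 1.83 ± 0.12 and adjusted p = 0.00036 in edgeR without it, 1.55 and 0.083 with all). *Cth*, which makes cysteine from cystathionine, followed the same course, with 0.00603 and 0.00544 in replicate 1 of WT and Het, and 0.00626 to 0.0069 against 0.0234 to 0.0402 in the others (2.13, adjusted p = 0.0012 in edgeR without replicate 1). *Atf3*, a repressor of the ISR, and *Fgf21*, an ISR-induced hormone, were at −0.02 and −0.63 in replicate 1 and rose by 1.56 and 1.59 on the log2 scale without it.

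*Chac1*, which degrades glutathione, had a log2 ratio of 0.17 in replicate 1 and rose by 0.86 without it. *Cebpb*, a bZIP partner of ATF4, had 0.48 and 1.01, and *Ppp1r15a*, the phosphatase subunit that ends the ISR, had 0.20 and 0.91. *Atf4* itself, which is controlled mainly at translation, had 0.579 ± 0.0324 in WT, against 0.715 ± 0.116 in Het (RQ, SD, n = 4 each), with overlap, and was called without replicate 1 (0.43, adjusted p = 0.0185 in edgeR). *Eif2ak3*, the eIF2α kinase PERK of the ER, went the other way, at −0.32 with all libraries and −0.28 without replicate 1 (adjusted p = 0.016 in edgeR).

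Amino acid supply and tRNA charging, which ATF4 controls, showed a smaller shift of the same sign in replicates 2 to 4. Of 18 tested genes of serine, glycine, one-carbon and amino acid synthesis, 0 were called with all libraries. Without replicate 1, 10 were called higher and 1 lower (9.82% and 9.59% of all genes). Their median log2 fold change was 0.29 with all libraries and 0.37 without replicate 1. It was −0.03 in replicate 1, where that of all genes was −0.21. *Psat1*, of serine synthesis, had an RQ of 0.222 and 0.216 in replicate 1 of WT and Het, and 0.218 to 0.234 against 0.333 to 0.416 in the others (0.70, adjusted p = 0.0026 in edgeR). *Phgdh*, *Mthfd2* and *Got1* rose by 0.85, 0.64 and 0.78 on the log2 scale without replicate 1, while *Sardh* fell by 0.70 on that scale. *Aldh1l2*, *Aldh18a1* and *Pck2*, the members with the highest RQs, were at 0.36, 0.20 and 0.62 without replicate 1, and of these *Aldh18a1* was not called.

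Of 18 amino acid transporters, 0 were called with all libraries, and 12 rose and 2 fell without replicate 1 (9.82% and 9.59% of all genes). Their medians were −0.11 in replicate 1 and 0.49 without it, against −0.21 and −0.04 over all genes. *Slc6a9*, a glycine transporter, rose by 0.92 and the heavy and light chain genes of the large neutral amino acid transporter, *Slc3a2* and *Slc7a5*, by 0.79 and 0.88 on the log2 scale. *Slc38a2*, the transporter with the highest RQ, was at −0.22 (adjusted p = 0.075 in edgeR) without replicate 1. All 20 cytosolic aminoacyl-tRNA synthetases had a positive log2 fold change without replicate 1 (median 0.27), of which 11 were called, against 9.82% of all genes. In replicate 1, 10 of the 20 were higher (median 0.01), against 25.2% of all genes (median −0.21). After *Wars*, those with the smallest p were *Rars* (0.43), *Lars* (0.61) and *Nars* (0.55).

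None of the 28 genes of the ER-UPR list was called with all libraries, and none lay outside the range of the other genotype in either direction (2 or 3 above it on the other scales). The median log2 fold change was −0.09, with −0.34 in replicate 1 and 0.00 without it, where 5 of 28 were called higher, against 9.82% of all genes, and none lower. These 5 were *Ero1l*, an ER oxidase (0.93), *Edem1* (0.38), *Atf6* (0.33), *Herpud1* (0.26) and *Ern1*, the sensor IRE1 (0.45), of which *Herpud1* was outside the threshold with the block (adjusted p = 0.0672 in edgeR). *Hspa5*, which encodes BIP, had RQs of 2.33, 1.65, 1.64 and 1.83 in WT, against 1.73, 1.94, 1.78 and 1.73 in Het. WT replicate 1 was the highest and the other libraries overlapped (ratio of means 0.964, exact permutation p = 0.857, two-sided). *P4hb*, *Calr* and *Hsp90b1*, the most abundant members, had log2 fold changes of −0.14, −0.10 and −0.02 with all libraries.

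Among 18 genes of the mt-UPR and mitochondrial chaperones, 0 were called with all libraries. Without replicate 1, 6 rose (9.82% of all genes did) and none fell. The median was 0.20 there and −0.11 in replicate 1, against −0.04 and −0.21 over all genes. *Hspa9* had RQs of 0.476, 0.431, 0.423 and 0.435 in WT, against 0.5597, 0.914, 0.774 and 0.707 in Het, with no overlap. The ratio of mean RQ was 1.67 (exact permutation p = 0.0286, two-sided, which is the minimum that 4 against 4 can give), the edgeR log2 fold change 0.74 ± 0.14 with adjusted p = 0.079, and 0.89 with adjusted p = 0.0015 without replicate 1. *Hspd1* and *Hspe1*, the chaperonin pair HSP60 and HSP10, were lower in Het in replicate 1 (log2 ratios −0.30 and −0.44) and at 0.28 and 0.44 without it, where *Hspe1* was called and *Hspd1* was not (adjusted p = 0.0071 and 0.074 in edgeR). *Lonp1*, the matrix protease, had a ratio of 1.28 (exact permutation p = 0.0286).

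Nuclear genes of the respiratory chain (24 tested) had a median of 0.13, with 0 called by all libraries. Without replicate 1, 8 were higher, against 9.82% of all genes, among them *Cox5b* (0.35) and *Cox5a* (0.47). With the total count as scale the latter count was 14, where 2863 of 18564 genes were called higher. With the block it was 3, where 1567 of 18490 genes were. The 13 mitochondrially encoded genes had none called in either fit, a median of −0.29 with all libraries and −0.84 in replicate 1. Their summed RQ was 33.0, 27.5, 28.2 and 27.9 in WT, against 19.5, 16.1, 31.9 and 28.0 in Het. Het replicates 1 and 2 were below the other 6 libraries.

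By the rule of a ratio above 1.2 or below 0.8 with an exact permutation p under 0.05, 12 of the 27 marker genes of the study changed at day 14, all of them upward: *Hspa9*, *Atf5*, *Ddit3*, *Eif3c*, *Eif4ebp1*, *Nupr1*, *Trib3*, *Cyb5r1*, *Asns*, *Lonp1*, *Avil* and *Rcc2*. Each had the smallest p that 4 against 4 allows (0.0286) and thus no overlap between genotypes, which 2.25% of all tested genes reached in this direction. These p are not adjusted for the number of markers, and after adjustment over them none passed. With DESeq2 size factors 14 changed and with the total count 16, the additions being *Atf4* and *Shmt2*, then *Atf6* and *Creb3l1*. In edgeR, 5 of the 27 were called with all libraries (*Atf5*, *Ddit3*, *Trib3*, *Cyb5r1* and *Avil*) and 17 without replicate 1. *Eif4ebp1*, a brake on cap-dependent translation, had 0.15, 0.139, 0.13 and 0.136 in WT, against 0.157, 0.3198, 0.212 and 0.215 in Het. *Nupr1*, a stress-induced chromatin protein, had 0.481 to 0.536 in WT, against 0.68, 1.36, 0.71 and 0.721 in Het, where replicate 2 was far above the others.

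*Eif3c* (ratio 1.52), *Asns*, the asparagine synthetase (1.66), and *Rcc2* (1.46) lay above WT in all 4 Het libraries. *Gpt2*, *Shmt2* and *Atf4* had ratios of 1.64, 1.23 and 1.23 but overlapped WT (exact permutation p = 0.143, 0.0571 and 0.0857). *Dnaja3* did not overlap WT (exact permutation p = 0.0286) but had a ratio of 1.10. *Hsp90b1*, *Xbp1*, *Atf6*, *Creb3l1*, *Hspd1*, *Hspe1*, *Clpp* and *Trap1* had ratios of 0.925 to 1.19, of which *Atf6* reached 1.27 and *Creb3l1* 1.27 with the total count (exact permutation p = 0.0286 each). *Bglap*, osteocalcin, had RQs of 0.13, 0.498, 0.608 and 0.401 in WT, against 0.0629, 0.424, 0.0899 and 0.0937 in Het, lower in each numbered pair but overlapping between genotypes (ratio 0.41, exact permutation p = 0.0857), and the Wnt receptor *Lrp5* had a ratio of 0.791 (exact permutation p = 0.229).

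The transcripts of type I collagen were lower in Het in replicates 2 to 4. *Col1a2*, which carries the substitution, had RQs of 82.0, 146, 148.2 and 122.7 in WT, against 74.1, 105.8, 95.5 and 88.4 in Het. *Col1a1* had 82.6, 161.4, 168.4 and 138.4 in WT, against 82.7, 115.8, 103 and 97.7 in Het. The WT library of replicate 1 was as low as the Het libraries, so that the genotypes overlapped. The ratios of mean RQ were 0.729 for *Col1a2* (exact permutation p = 0.114) and 0.725 for *Col1a1* (exact permutation p = 0.143), and both were called without replicate 1 (log2 fold changes −0.53 and −0.56, adjusted p = 0.037 and 0.029 in edgeR). A substitution of 1 base does not by itself change the number of reads counted on *Col1a2*, so its level is no check of the genotype label.

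Of 10 fibrillar collagen genes, 0 were called with all libraries and 5 were lower without replicate 1, the other 3 being *Col11a1* (−0.83), *Col11a2* (−1.26) and *Col27a1* (−1.08), which cartilage also expresses. *Col5a2* was at −0.10 and not called. In the machinery of procollagen folding, export and crosslinking, 0 of 31 genes were called with all libraries, while 8 lay below WT without overlap, against 8.86% of all genes (2 to 4 on the other scales). Without replicate 1, *Pcolce2* (−0.56), *Adamts14* (−0.33), *Bmp1* (−0.40) and *Fkbp14* (−0.31) fell and *Loxl1* rose (0.30), where 9.59% of all genes were called lower and 9.82% higher. *Sparc* and *Serpinh1*, the collagen chaperone HSP47, were at −0.31 and −0.02, and *P4ha1* at 0.08, none of them called.

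Genes of OB maturation (25 tested) had a median of −0.34 with 0 called by all libraries, and 24 of 25 were negative without replicate 1, where 9 fell. These were *Panx3* (−0.60), *Pth1r* (−0.53), *Alpl*, the tissue-nonspecific alkaline phosphatase (−0.58), *Dlx5* (−0.42), *Smpd3* (−0.39), *Sp7* (−0.37), *Lrp6* (−0.41), *Runx2* (−0.44) and *Ibsp*, bone sialoprotein (−0.43). In replicate 1 *Alpl*, *Pth1r*, *Dlx5* and *Smpd3* were higher in Het (log2 ratios 0.22 to 0.33) and *Ibsp* lower (−0.61). With the block and without replicate 1, 15 were called lower. *Spp1* and *Mmp13*, the most abundant members after *Ibsp*, were at −0.46 and −0.67 without replicate 1, not called, and *Mmp13* and *Bglap* passed with the block (adjusted p = 0.0365 and 0.0353 in edgeR).

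Of 16 tested osteocyte genes, 0 were called with all libraries and 0 lay above or below WT without overlap. Without replicate 1, 1 was called higher and 2 lower, where 9.82% and 9.59% of all genes were. Among the 16, *Sost*, a Wnt inhibitor, had RQs of 0.024, 0.113, 0.177 and 0.0969 in WT, against 0.0613, 0.0682, 0.0383 and 0.0326 in Het. Replicate 1 went in the opposite direction to the others (log2 ratio 1.35, against −1.49 and adjusted p = 0.0146 in edgeR without it), and *Mepe* did so too (0.69 against −1.27). *Pdpn*, an early osteocyte protein, rose by 0.45 without replicate 1. In bulk cultures, fewer cells of a type and less RNA per cell cannot be told apart.

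Markers of macrophages differed between Het and WT libraries in opposite directions in replicate 1 and in the others, so they showed no single direction by genotype. All 18 listed markers were tested and all had counts. Their summed RQ was 5.51, 2.01, 1.72 and 2.94 in WT, against 3.84, 8.61, 7.99 and 8.09 in Het. WT replicate 1 was above Het replicate 1, while Het replicates 2 to 4 were above all other libraries. With all libraries 0 of 18 were called (median 1.21), in replicate 1 all 18 were lower in Het (median −0.47), and without it all 18 were called higher (median 1.72), under each scale and with the block. *Lyz2*, lysozyme, had the highest RQ, at 0.858 to 1.46 in WT, against 4.37 to 4.8 in Het without replicate 1 (2.05, adjusted p = 0.0009 in edgeR), and 2.86 and 1.79 in replicate 1. The receptor *Csf1r* had 0.109 to 0.193 and 0.468 to 0.507, with 0.302 and 0.296 in replicate 1. The complement genes *C1qa*, *C1qb* and *C1qc* rose by 1.93, 1.90 and 1.80 on the log2 scale without replicate 1.

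These macrophage values lie beside every gene group that was called without replicate 1, the ISR and NF-kB lists included, since the higher macrophage sums are in the same 3 Het libraries as the higher values of *Slc7a11*, *Cth* and *Atf3*. Their part in those results was not tested. In replicate 1 the macrophage sum of Het was 0.696 times that of WT. There 20 of the 31 ISR genes were higher in Het, against 25.2% of all genes. The log2 ratios were 2.04 for *Trib3* and 0.68 for *Atf5*, whereas *Atf3*, *Atf4*, *Cth* and *Fgf21* were at −0.02, −0.10, −0.14 and −0.63.

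Interferon-stimulated genes had the same direction as the macrophage markers in replicate 1 and in the others, and inflammatory mediators did so in part. Of 20 interferon-stimulated genes, 0 were called with all libraries, all 20 were lower in replicate 1 (median −0.93) and all 20 were positive without it (median 1.79), with 12 called. Their summed RQ was 0.496 and 0.336 in replicate 1 of WT and Het, 0.291 to 0.361 in WT replicates 2 to 4 and 0.41, 0.53 and 0.932 in the Het ones, highest in Het replicate 4. *Isg15*, a ubiquitin-like protein, was at 0.00664 to 0.00938 in those WT libraries and 0.0187, 0.0236 and 0.0683 in those of Het. Of 19 tested NF-kB targets and chemokines, 11 were called higher and none lower without replicate 1. In replicate 1, 7 of the 19 were higher in Het (median −0.16, against −0.21 over all genes). The neutrophil chemokine *Cxcl2* (3.38, with 0.96 in replicate 1) lay above WT in all libraries, whereas the monocyte chemokines *Ccl2* and *Ccl7* (1.52 and 1.45) were lower in Het in replicate 1 (−1.37 and −1.44). Osteoclast markers showed 3 of 13 higher and 1 lower without replicate 1, with summed RQs of 0.9496 to 1.42 in all 8 libraries.

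Chondrocyte genes were lower in Het in replicates 2 to 4, where the macrophage markers were higher. Of 15, all tested, 0 were called with all libraries, and 12 fell and none rose without replicate 1 (median −1.92), while the median in replicate 1 was −0.12. The summed RQ was 33.6, 13.2, 13.2 and 22.0 in WT, against 33.9, 4.12, 4.41 and 5.35 in Het. Both libraries of replicate 1 were high and nearly equal, and Het replicates 2 to 4 were below all WT libraries. *Col2a1*, the collagen of cartilage, had 17.6, 5.19, 4.86 and 10.4 in WT, against 19, 0.957, 1.54 and 2.08 in Het. *Col10a1*, of hypertrophic cartilage, had 0.139, 0.0674, 0.0443 and 0.0875 in WT, against 0.282, 0.00931, 0.00766 and 0.0106 in Het, and *Comp* fell by 2.09 on the log2 scale without replicate 1. The fall of *Col11a1* and *Col11a2* above lies beside these values, and the part of cartilage cells in it was not tested.

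**Figure D2:**
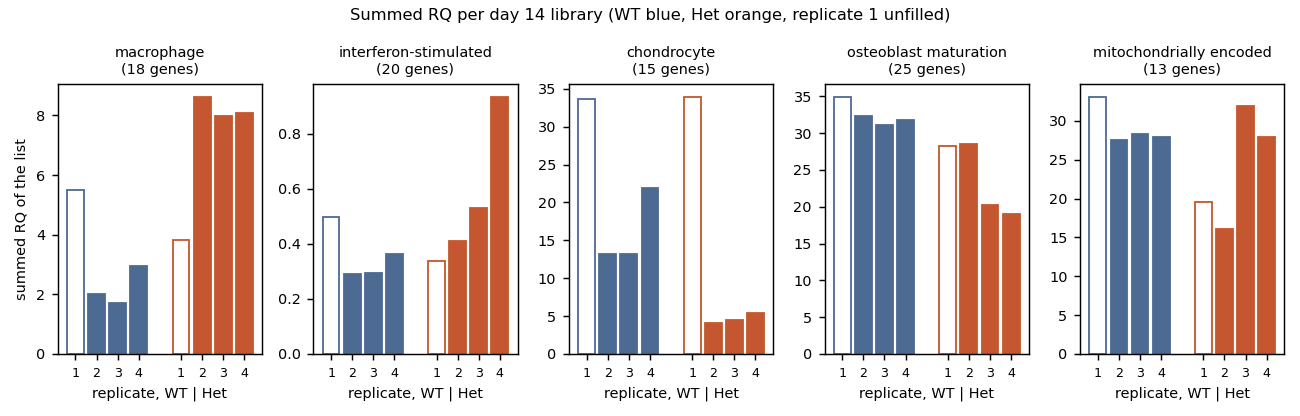
Summed RQ (y axis) of the genes of 5 lists in each day 14 library (x axis, replicates 1 to 4 of WT in blue, then of Het in orange, replicate 1 unfilled). Macrophage sums are highest in Het replicates 2 to 4 (7.99 to 8.61) and chondrocyte sums lowest there (4.12 to 5.35), while replicate 1 shows neither.

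**Figure D3:**
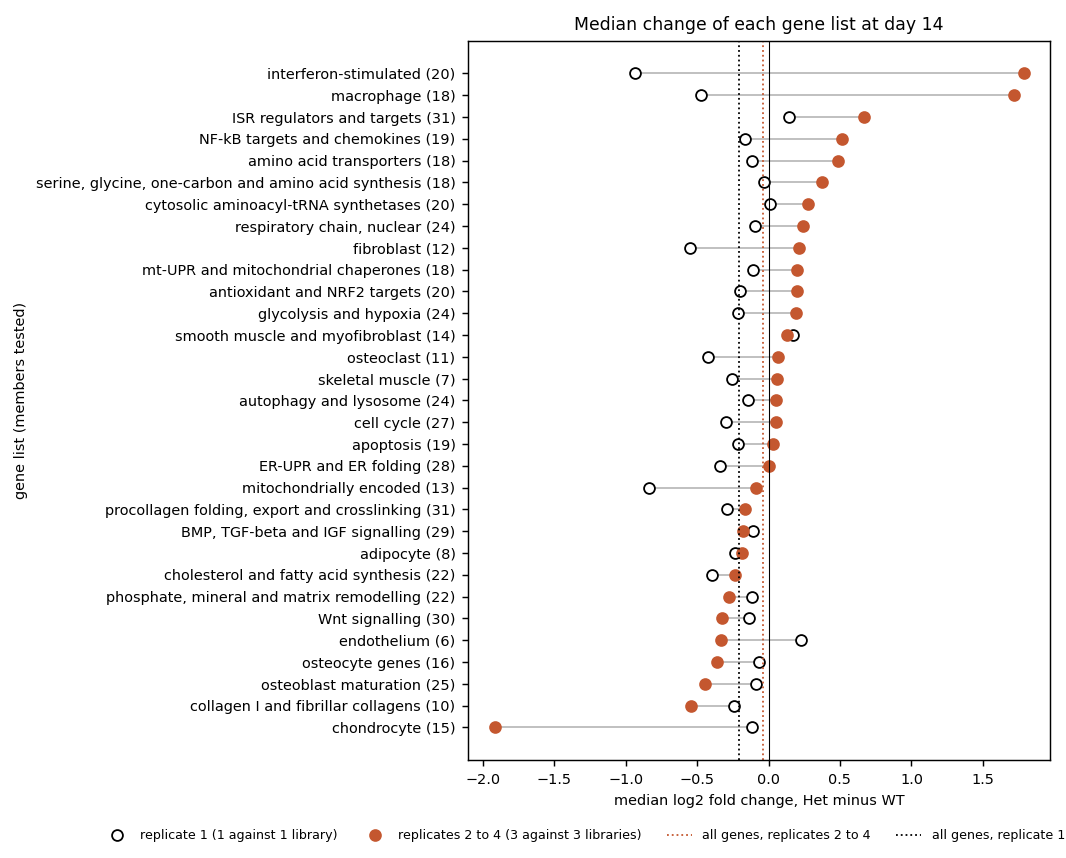
Median log2 fold change of Het minus WT (x axis) for 31 gene lists (y axis, with the number of members tested), in replicate 1 alone (unfilled) and in replicates 2 to 4 (filled), with the medians of all genes as dotted lines at −0.21 and −0.04. The interferon, macrophage and chondrocyte lists differ most between both, and the ISR list is right of the medians of all genes in both.

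Of 22 genes of cholesterol and fatty acid synthesis, *Hmgcs1* was the 1 called with all libraries, 10 lay below WT without overlap (8.86% of all genes did, and 3 to 8 of the 22 on the other scales) and none above, and the medians were −0.28 with all libraries, −0.40 in replicate 1 and −0.24 without it. Without replicate 1, *Hmgcs1* (−0.48), *Fasn* (−0.46), *Acaca* (−0.28), *Dhcr7* (−0.35) and *Sqle* (−0.23) fell, the last not with the block (adjusted p = 0.069 in edgeR). *Fasn*, the fatty acid synthase, was at 0.02 in replicate 1.

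In signalling, 0 of 30 Wnt genes were called with all libraries, and 9 fell and 1 rose without replicate 1. There 9.59% of all genes were called lower and 9.82% higher. The falls included *Lef1* (−1.26), *Wnt4* (−1.63), *Wif1* (−0.71), *Notum* (−0.88) and *Ctnnb1*, β-catenin (−0.40), and the rise was in *Dkk2* (1.15, with −2.89 in replicate 1). Of 29 genes of BMP, TGF-β and IGF signalling, 10 fell and 4 rose without replicate 1. With all 4 Het libraries, 3 of the 29 lay below WT without overlap (10.3%), close to the 8.86% of all genes. *Tgfb2* (−0.73) and *Id1*, a BMP target (−0.54), were among them. *Bmp7* (−1.58) was close to 0 in replicate 1 (0.08). *Mmp9*, a gelatinase, had RQs of 0.0286 to 0.0564 in WT, against 0.00738 to 0.023 in Het, without overlap (−1.73, adjusted p = 0.0905 in edgeR, 0.0469 with the block, and −1.98 with 0.0012 without replicate 1).

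The remaining lists are given by their calls without replicate 1, where 9.82% of all genes were called higher and 9.59% lower. These were the cell cycle (2 of 27, *Rcc2* and *Cdkn1a*, both higher), glycolysis and hypoxia (1 of 24, *Car9*), smooth muscle and myofibroblast (2 higher and 2 lower of 14), fibroblast (3 and 2 of 12), adipocyte (3 and 3 of 8) and endothelium (1 and 1 of 6). Antioxidant and NRF2 target genes had 8 higher and 1 lower of 20, autophagy and lysosome 6 and 1 of 24, apoptosis 4 and 0 of 19, and skeletal muscle 2 and 0 of 9. Of the 12 neutrophil and lymphocyte markers 2 were tested and 0 called. Phosphate, mineral and matrix remodelling had 2 higher and 5 lower of 22. With all libraries, 1 of these 22 was called higher and 1 lower. On the housekeeping scale 6 of them lay below WT without overlap (8.86% of all genes did) and 1 above (2.25%). On each other scale 3 lay below.

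Beyond the lists, *Ostn*, osteocrin, a secreted peptide of bone and muscle, had 0, 6, 8 and 5 counts in WT and 23, 562, 310 and 191 in Het, just outside the threshold (adjusted p = 0.051 in edgeR with all libraries, 0.00562 with the block, 0.0025 without replicate 1). It was named for that value after it was seen, as were the genes that follow. *Cd4* and *Cxcl9* (log2 fold changes 3.15 and 3.54 without replicate 1) and *Lgr5*, an R-spondin receptor (3.25), were among the largest increases in replicates 2 to 4. In replicate 1 *Cd4* was at 0.36, *Cxcl9* at −3.15 and *Lgr5* at −1.14, and with all libraries none was called (2.48, 2.64 and 2.90, adjusted p = 0.0795, 0.174 and 0.137 in edgeR). *Clec3a* (−5.45) and *Snorc* (−4.27), cartilage genes, were among the largest falls, with −0.12 and 0.40 in replicate 1 and −0.91 and −0.33 with all libraries, not called. Of the 1816 genes called higher without replicate 1, 428 were higher in Het in replicate 1 (23.6%, against 25.2% of all 18490 genes), and of the 1773 called lower, 1133 were lower there (63.9%, against 74.8%).

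**Figure D4:**
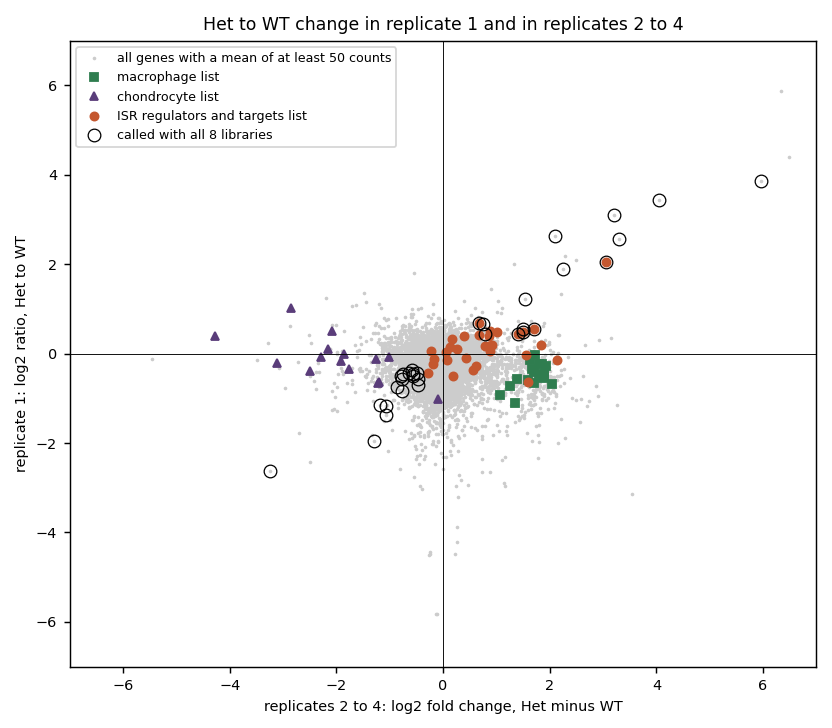
Log2 fold change of Het minus WT in replicates 2 to 4 (x axis) and log2 ratio of Het to WT in replicate 1 (y axis) for genes averaging 50 counts or more (grey), with the ISR, macrophage and chondrocyte lists coloured and the genes called with all 8 libraries ringed. Macrophage genes lie right of 0 and below it, and the ringed genes lie in the upper right and lower left.

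The Het effect at day 14 was then set against that at day 8, with a test of the difference in a fit of all 24 libraries. 12 entries of 20434 (0.0587%) had a more positive effect at day 14 and none a more negative one, and for 11 of them the effect was also larger in size. Among them were *Trib3*, both *Ddit3* entries, *Car6*, *Avil*, *Cdsn*, *Cdh6*, *Soat2*, the cytochrome P450 gene *Cyp2c23* and the non-coding *Gm14137* and *Galnt6os*. With the replicate block 19 were called, and *Soat2* and *Cyp2c23* were then outside the threshold (adjusted p = 0.0857 and 0.0506 in edgeR). Without replicate 1, 726 of 19656 genes had a more positive effect at day 14 (3.69%) and 96 a more negative one (0.488%), with all 12 among them. By the values of the 24-library fit, 530 of the 726 were lower in Het at day 8, and for 218 the effect at day 14 was the smaller in size. Leaving out replicate 2, 3 or 4 left 0 or 1.

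*Ddit3* had RQs of 0.021 to 0.0266 in WT, against 0.0189 to 0.0298 in Het at day 8, where the log2 fold change was 0.00 ± 0.15, and 1.2 ± 0.15 at day 14 (difference 1.2 ± 0.21, adjusted p = 0.035 in edgeR). *Trib3* was at 0.60 ± 0.22 at day 8 and 2.87 ± 0.21 at day 14 (difference 2.27 ± 0.30, adjusted p = 0.0013 in edgeR). *Avil* had 0.0078 to 0.0468 in WT, against 0.0118 to 0.0351 in Het at day 8, with a log2 fold change of −0.40 and a difference of 3.57 ± 0.66 (adjusted p = 0.049 in edgeR).

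*Cdsn* (difference 2.48) and *Car6* (5.27) had no call at day 8, with log2 fold changes of −0.27 and 0.45. *Galnt6os* was lower in Het at day 8 (−2.32) and at −0.32 at day 14, so its positive difference is not a rise at day 14. Of the ISR list, 16 of 31 genes had a more positive effect at day 14 without replicate 1 and none a more negative one, and for 15 of the 16 it was larger in size. Of OB maturation 9 of 25 had a more positive effect, and all 9 were lower in Het at day 8 and closer to WT at day 14 (medians −1.59 and −0.28 in the 24-library fit), *Smpd3* for example at −1.84 and −0.20. The 18 macrophage markers had 0 calls in either direction in that test, with a median difference of −0.16.

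**Figure D5:**
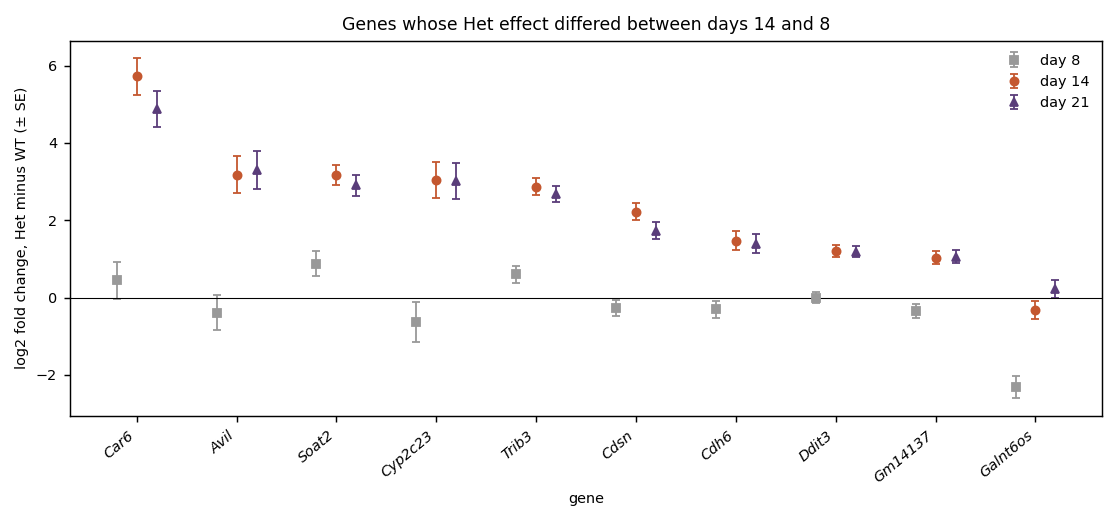
Log2 fold change of Het minus WT ± SE (y axis) at days 8 (grey), 14 (orange) and 21 (purple), from the fit of 24 libraries, for 10 genes (x axis) whose effect differed between days 14 and 8. At day 8 the values lie between −2.32 (*Galnt6os*) and 0.88 (*Soat2*), and the symbols of days 14 and 21 lie close together.

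Between days 14 and 21, the difference of the Het effects was called for 0 of 20434 genes (0%) in edgeR, with 452 at an unadjusted p under 0.05, and for 0 in DESeq2. Without replicate 1 edgeR called 13 of 19656 (0.0661%), of which 9 had a more positive effect at day 14. These were *Cd52*, *Stap1*, *Ptpro*, *Ccl9*, *F13a1*, *Samsn1*, *Abcg1*, *Cybb* and *Cfp*, with differences of 0.91 to 1.64 on the log2 scale. *Cybb*, the phagocyte oxidase, *F13a1* and *Cfp*, properdin, are known from macrophages. *Adamts14* (−0.56), *Troap* (−0.61), *Uhrf1* (−0.50) and *Gm3550* (−3.34, with a mean of 7.25 counts) had a more negative one, and in the fit of all libraries these 4 were below 0 at day 14 and above 0 at day 21 (*Adamts14* at −0.25 and 0.21). With all libraries none of the 13 was called, with or without the block. *Trib3*, *Ddit3* and *Avil* had log2 fold changes of 2.69, 1.19 and 3.30 at day 21, and a missing call does not show that the effects of both days were equal.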

How the data were processed

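Bulk polyA RNASeq was measured in 24 cultures, and the 8 of day 14 were analysed here, grouped by the genotype and time in the labels. The deposited files hold raw counts for each gene, which the authors made on mm10, with cutadapt 2.5, STAR 2.73a and featureCounts 1.6.4 in the submitters' processing notes; the strand setting is not given in the sources used here. Counts of 55335 genes were used as deposited, and 54587 identifiers matched GENCODE M21. Totals of 17140202 to 59734231 counts per library set the precision of low genes.

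Library sizes were set by the geometric mean of *Actg1*, *Actb*, *Mrfap1* and *Sdha*, after the method of the study. Genes passing filterByExpr were tested with the quasi-likelihood test of edgeR 4.0.16 (R 4.3.3, limma 3.58.1), with Benjamini-Hochberg adjustment over all of them and a threshold of 0.05, called below that. Differences between days were contrasts in a fit of all 24 libraries. Values of replicate 1 alone are ratios of 1 library to 1 (0.5 added to each count), with no test. For RQ of 27 markers, *Col1a1* and *Col1a2*, two-sided exact permutation tests were run in SciPy 1.17.1. The fitting was tested on simulated data. The alternatives were TMM, DESeq2 size factors, total counts, filters, DESeq2 1.42.0, a minimum change, the replicate block and leaving out replicates or libraries. Those that combine another scale, DESeq2 or the block with leaving out replicate 1, a covariate for replicate 1, and other scales for genes without overlap, were added after seeing the data.

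Deviations of same-numbered WT and Het libraries from their group means correlated at 0.246 to 0.479 over 4 pairs, highest in replicate 1. Those of other pairs correlated at −0.391 to 0.3, the highest being WT replicate 4 with Het replicate 3. Among replicates 2 to 4 alone the same-number values were 0.008 to 0.212. These values set replicate 1 apart and do not show that the numbers pair the other replicates. No 2 replicates agreed within sampling noise.

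The gene lists and members were chosen with earlier results of these data known. The genes named were *Col1a1*, *Col1a2* and the housekeeping genes; the 27 markers; of the called, non-overlapping genes averaging at least 50 counts, the 12 largest rises and falls and the 8 smallest p per direction; of each list, up to 5 called members with the smallest p and the 3 of highest RQ; the 5 largest differences between days in each direction; and cell type markers. Others were named after their values were seen, and 1 called gene is not reported here. Promoter sequences were those of RefSeq (GRCm38.p6), 250 bases before to 50 after each start.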

Additional observations from a re-analysis of the deposited data

Results flagged for a closer look

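Of 138 groups of 4 libraries examined, 11 held a library far from the others by Dixon's test, and chance flags about 1 in 20. The statistic is the gap to the nearest library divided by the range of the group. Het replicate 2 was the highest library for *Wars* (0.944), *B4galnt2* (0.833), *Nupr1* (0.939), *Trap1* (0.849) and *Bglap* (0.915), and WT replicate 1 was the highest for *Clpp* (0.839). Among summed lists, Het replicate 1 was lowest for macrophage genes (0.87) and highest for chondrocyte (0.959) and endothelium genes (0.988). WT replicate 1 was highest for mitochondrially encoded genes (0.866) and WT replicate 2 lowest for adipocyte genes (0.879).

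The Het effect on the log2 scale differed between days 14 and 8, by the test of the difference in edgeR, for genes that included *Cdsn* (2.48), *Trib3* (2.27), *Avil* (3.57), *Ddit3* (1.2), *Gm14137* (1.39), *Galnt6os* (1.99), *Cdh6* (1.78), *Car6* (5.27), *Soat2* (2.29) and *Cyp2c23* (3.68). Of these, *Soat2* and *Cyp2c23* were past the threshold without the replicate block but not with it.

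Without replicate 1, and not with it, the Het effect differed between days 14 and 21 by the same test. It was more positive at day 14 for *Cd52* (1.18), *Stap1* (1.34), *Ptpro* (1.43), *Ccl9* (1.28), *F13a1* (1.64), *Samsn1* (1.35), *Abcg1* (1.16), *Cybb* (1.09) and *Cfp* (0.91). It was more negative for *Adamts14* (−0.56), *Troap* (−0.61), *Uhrf1* (−0.50) and *Gm3550* (−3.34). The macrophage sums of replicates 2 to 4 stand beside these values, and their part was not tested.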

How the results depend on the processing

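The number of genes called at day 14 (34) depended on replicate 1 and on the model: 52 with the total count scale (46 higher and 6 lower, against 16 and 18), 1261 with DESeq2, 704 with 24 libraries in the fit, 9 against a minimum change of 20% and 335 with a covariate for replicate 1. TMM gave 23 (15 higher, 8 lower), DESeq2 size factors 23 (17 and 6) and the replicate block 24 (14 and 10), of which 19, 20 and 16 were among the 34. *Atf5* and *Avil* were among the calls lost with TMM and with DESeq2 size factors. Leaving out 1 replicate number gave 1 to 3589 calls, and single libraries 1 to 2190: 2190 without Het replicate 1, 328 without WT replicate 1, 16, 8 and 5 without Het replicates 2, 3 and 4, and 1, 5 and 1 without WT replicates 2, 3 and 4. Without replicate 1 the count was 3076 with the block, 3847 with DESeq2 size factors, 3887 with TMM, 4021 with the total count and 4079 with DESeq2. The difference between days 14 and 8 (12 genes) was called for 7 with TMM, 7 with DESeq2 size factors, 6 with no filter, 19 with the block, 52 with DESeq2 and 0 to 822 leaving out a replicate. That between days 14 and 21 ranged from 0 to 13 leaving out a replicate. The causes were not tested. The 12 markers changed by RQ and the ratios of *Col1a1* and *Col1a2* kept their side of the threshold under each scale, while other markers passed it, 14 in all with DESeq2 size factors and 16 with the total count, and no gene named here turned its direction past the threshold. With the block, calls were lost as given beside each gene, and 3 named genes were gained (*Ostn*, *Mmp9* and *Ddx3y*). For RQ, neither a swap within the 4 replicate numbers nor 3 against 3 libraries can reach the threshold, and the ratios with the block were 0.742 for *Col1a2* and 0.746 for *Col1a1*. The lowest totals, of replicate 1, limit genes of few counts.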

Other observations

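Genes not described above add to the account of the matrix and of growth factors. *Omd*, osteomodulin, a collagen-binding proteoglycan of bone, had RQs of 0.329 to 0.356 in the WT libraries and of 0.101, 0.0509, 0.216 and 0.144 in Het replicates 1 to 4. Het lay below WT in every replicate, but it was not called with all libraries (log2 fold change −1.44, adjusted p = 0.127 in edgeR, 0.0599 without replicate 1, and 0.0194 without replicate 1 with the block). *Mmp2*, a gelatinase, was at 2.52 to 2.61 in WT, against 1.90 to 2.19 in Het, again without overlap, and fell by 0.37 on the log2 scale without replicate 1 (adjusted p = 0.0143 in edgeR). *Mmp3*, stromelysin, rose by 1.78 on that scale without replicate 1, where replicate 1 itself was at −0.43.

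The growth factor *Igf1* and its imprinted relative *Igf2* went in opposite directions without replicate 1, with log2 fold changes of 0.70 and −0.60 (adjusted p = 0.0498 and 0.0074 in edgeR). In replicate 1 *Igf1* was lower in Het (log2 ratio −0.99) and *Igf2* was near equal (−0.07). *H19*, the imprinted non-coding gene beside *Igf2*, fell by 0.32 on the log2 scale without replicate 1 (adjusted p = 0.0406 in edgeR, 0.0687 with the block). Among NRF2 targets, *Gclm*, of glutathione synthesis, and *Txn1*, thioredoxin, rose by 0.50 and 0.60 without replicate 1 and were lower in Het within it (−0.49 and −0.37).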
